A study of Mus musculus with 38 samples.

Results

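The mouse major histocompatibility complex (MHC) on chromosome 17 was described through the histone peaks that lie in it. All peaks of 4 deposited lists (lactylation, H3K18la, and acetylation, H3K18ac, of lysine 18 of histone H3, each in M1 and M0 macrophages) were taken that lie wholly within chr17:33600000-36600000 of build mm10, an interval of 3 Mb. This gave 554 of 121754 peaks, with 109 of 16139 in the M1 H3K18la list, 118 of 21885 in the M0 H3K18la list, 170 of 42237 in the M1 H3K18ac list and 157 of 41493 in the M0 H3K18ac list. The cells were bone marrow-derived macrophages of C57BL/6 mice. M1 cells had been kept for 24 h in 5 ng/ml of lipopolysaccharide (LPS) with 12 ng/ml of interferon-gamma (IFNg), and M0 cells were unstimulated. RNA was sequenced with lactic acid added 4 h after LPS and IFNg (LA 8h, LA 16h and LA 24h, the time being hours after LPS and IFNg), with LPS and IFNg alone (4, 8, 16 and 24 h), and without stimulation (0 h), in 4 libraries per group and 32 in all. Each mark and state has 1 ChIP-seq library, so peaks were compared with no test.

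The MHC holds the genes that let cells show peptides to T cells. Class I molecules present peptides cut by the immunoproteasome and pumped by the TAP transporter, class II molecules present peptides from ingested material, and the class III stretch between them codes for complement factors, tumour necrosis factor and many unrelated proteins. IFNg is a known inducer of both classes in macrophages, through interferon regulatory factors and the coactivators CIITA and NLRC5. H3K18ac is known from active promoters and enhancers, and H3K18la is a lactyl mark on the same lysine, so a given histone tail can carry only one of them.

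A few promoters carry much of what follows: those of H2-T23 and H2-Eb1, which had peaks in M1 lists only at the start, that of H2-Aa, which lay under a wide M1 acetylation peak, and those of Tap1 and H2-K1, which were marked in both states. Each runs from 250 bases before to 50 bases after the annotated start (RefSeq, GRCm38.p6) and is written 5′ to 3′ on the strand of its gene. Capitals mark matches, on either strand, to an interferon-stimulated response element (ISRE, GAAA, any 2 bases, GAAA), an IFNg-activated site (GAS, TTCNNNGAA), a Y box (CCAAT), a kappa B site (GGGG, any base, TTCCC) or a cyclic AMP response element (CRE, TGACGNCA).
H2-T23 promoter, chr17:36032652-36032951, minus strand: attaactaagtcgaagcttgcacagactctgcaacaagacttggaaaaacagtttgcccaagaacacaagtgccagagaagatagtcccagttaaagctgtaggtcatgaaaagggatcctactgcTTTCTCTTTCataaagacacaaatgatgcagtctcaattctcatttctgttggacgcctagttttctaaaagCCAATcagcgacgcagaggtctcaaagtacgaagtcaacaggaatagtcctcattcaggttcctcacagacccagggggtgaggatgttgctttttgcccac
H2-Eb1 promoter, chr17:34305617-34305916, plus strand: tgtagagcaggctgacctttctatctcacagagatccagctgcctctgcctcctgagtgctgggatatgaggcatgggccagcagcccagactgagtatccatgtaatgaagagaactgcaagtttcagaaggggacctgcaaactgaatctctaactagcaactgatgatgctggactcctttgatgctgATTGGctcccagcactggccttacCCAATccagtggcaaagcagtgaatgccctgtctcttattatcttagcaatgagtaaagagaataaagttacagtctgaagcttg
H2-Aa promoter, chr17:34287774-34288073, minus strand: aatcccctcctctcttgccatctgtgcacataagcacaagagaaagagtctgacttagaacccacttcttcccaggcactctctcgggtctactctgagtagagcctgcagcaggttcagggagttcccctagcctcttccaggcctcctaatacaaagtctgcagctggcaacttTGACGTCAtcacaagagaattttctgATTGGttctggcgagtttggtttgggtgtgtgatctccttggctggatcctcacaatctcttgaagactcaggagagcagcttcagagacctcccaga
Tap1 promoter, chr17:34187306-34187605, plus strand: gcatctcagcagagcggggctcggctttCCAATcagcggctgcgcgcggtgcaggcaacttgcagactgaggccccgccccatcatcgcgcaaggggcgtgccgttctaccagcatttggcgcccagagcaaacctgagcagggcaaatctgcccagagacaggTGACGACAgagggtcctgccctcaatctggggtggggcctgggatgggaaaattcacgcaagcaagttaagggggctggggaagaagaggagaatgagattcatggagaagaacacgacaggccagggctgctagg
H2-K1 promoter, chr17:34000298-34000597, minus strand: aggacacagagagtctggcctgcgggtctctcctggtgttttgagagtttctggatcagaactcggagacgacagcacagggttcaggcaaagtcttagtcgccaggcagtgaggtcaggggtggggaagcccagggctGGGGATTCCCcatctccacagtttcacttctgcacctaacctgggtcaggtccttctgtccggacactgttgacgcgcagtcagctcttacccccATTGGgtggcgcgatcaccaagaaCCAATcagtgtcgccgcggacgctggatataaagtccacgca
The H2-T23 promoter holds an ISRE match and a Y box, that of H2-Eb1 holds a pair of Y boxes, and that of H2-Aa holds a palindromic CRE beside a Y box. The Tap1 promoter holds a Y box and a CRE, and that of H2-K1 a kappa B site and a pair of Y boxes. Only exact matches to these strings were sought, so a promoter without a match is not shown to lack such a site. Among 32851 promoters of the same length in the RefSeq table, 3.44% hold an ISRE, 8.30% a GAS, 37.4% a Y box, 0.536% a kappa B site and 3.21% a CRE. Among the 123 promoters of the interval's listed genes these shares are 3.25%, 6.50%, 40.7%, 6.50% and 7.32%. The kappa B matches belong to 6 genes (Atat1, H2-D1, H2-K1, H2-Q6, H2-Q7 and Neu1), some of which are near copies of each other, and the ISRE matches to 4 (Aif1, Gm7030, H2-T22 and H2-T23). Of the 300 bases of the H2-T23 promoter, 43 lay under an M1 H3K18la peak and 282 under an M1 H3K18ac peak, and 0 under a peak of either M0 list. The H2-Eb1 promoter lay wholly under both M1 peaks and under neither M0 list. The H2-Aa promoter lay wholly under the M1 H3K18ac peak and under none of the other lists, and those of Tap1 and H2-K1 lay wholly under peaks of all 4 lists.

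Sequencing depth was 21006731 mouse reads for M1 H3K18la, 21765076 for M0 H3K18la, 32948615 for M1 H3K18ac and 36576826 for M0 H3K18ac. The RNA libraries held 60.6 to 103.9 M reads (M, in units of 1e6) in listed genes. All 8 macrophage markers checked were listed and their summed level was 36140 to 48400 RPKM at 24 h and 17912 to 20398 RPKM at 0 h, while 0 of 6 erythroid and mast cell markers were listed. Only genes that passed the authors' own test are listed, so an unlisted marker is not shown to be absent. The RNA library furthest from its group was 24 h replicate 4, with the highest value in 76 of 98 tested genes of the interval (77.6%, against 42.2% of all tested genes), and results that rest on it are also given without it. Smaller leanings were seen in LA 24h replicate 1 (highest in 55.1%), LA 24h replicate 4 (lowest in 50%) and 4 h and 8 h replicate 1 (highest in 51% and 44.9%). No label ties a replicate to its own mouse or culture, and p-values therefore measure only the spread between these libraries.

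Peaks of the interval made up 13.5% of the chromosome 17 peaks in the M1 H3K18la list, 11.4% in M0 H3K18la, 9.26% in M1 H3K18ac and 8.77% in M0 H3K18ac, while the interval holds 153 of the chromosome's 1059 protein-coding genes (14.45%). Peaks lay within 1 kb of an annotated start site for 56.0% of M1 H3K18la, 57.6% of M0 H3K18la, 44.7% of M1 H3K18ac and 47.1% of M0 H3K18ac members, against 41.8%, 39.4%, 22.4% and 23.9% of the whole lists. Median peak lengths were 1314 bases in M1 and 1324 in M0 for H3K18la, and 1772 and 1527 for H3K18ac. Peaks of 5 kb or longer numbered 8 (7.34%, against 3.82% of the list) in M1 H3K18la and 6 (5.08%, against 2.86%) in M0 H3K18la. They numbered 32 (18.8%, against 16.7%) in M1 H3K18ac and 17 (10.8%, against 13.0%) in M0 H3K18ac.

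Called H3K18ac peaks covered more of the interval in M1 than in M0, and called H3K18la peaks a similar length. M1 H3K18ac peaks covered 593058 bases (19.8% of the interval) and M0 H3K18ac peaks 392278 bases (13.1%), a ratio of 1.51, with a mean fold enrichment per covered base of 5.67 in M1 and 5.56 in M0. Over the whole lists this ratio was 1.22. M1 H3K18la peaks covered 212374 bases (7.08%) and M0 H3K18la peaks 209281 bases (6.98%), a ratio of 1.01 beside 0.741 over the whole lists, with a mean fold per base of 7.17 in M1 and 8.91 in M0. Fold enrichment here is the authors' value over the caller's background. It is not scaled to the spike-in chromatin, whose reads numbered 141688 in M1 and 310066 in M0 for H3K18la, and 50470 and 52482 for H3K18ac. Their part in the called lengths was not tested. The fold serves only to describe peaks within their own list. With both lists held to a −log10 q of at least 5, a threshold tried after the data were seen, the acetylation ratio was 1.57 (1.15 over the lists) and the lactylation ratio 0.832 (0.602 over the lists). Called length depends on the depth and threshold of each library, and the labels do not state the threshold.

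Few M0 acetylation peaks of the interval lacked an M1 partner as the lists stand, though this share moved with the threshold. Of 157 M0 H3K18ac peaks, 6 overlapped no M1 H3K18ac peak, which is 3.82% (exact 95% binomial interval 1.42 to 8.13%) against 23.8% of the whole list. It was 14.7% against 29.5% of the list at the stricter q, and 7.01% against 34.2% where an overlap had to cover at least 50% of the peak. Of 170 M1 H3K18ac peaks, 37 overlapped no M0 H3K18ac peak, 21.8% (15.8 to 28.7%) against 29.6% of the list. For lactylation, 17 of 109 M1 peaks had no M0 partner, 15.6% (9.36 to 23.8%) against 22.4% of the list, and 28 of 118 M0 peaks had no M1 partner, 23.7% (16.4 to 32.4%) against 42.8%. At the stricter q these lactylation shares were 7.81% against 11.7% of the list in M1, and 40.4% against 52.8% in M0. With the 50% overlap they were 30.3% against 31.6% in M1, and 37.3% against 56.9% in M0, and the M1 H3K18ac share was 40.6% against 43.4%. These intervals treat peaks as independent and cover counting error only. The marks overlapped closely: 95.4% of M1 and 97.5% of M0 H3K18la peaks touched an H3K18ac peak of the same state, beside 94.7% and 98.9% of the lists. In the other direction, 51.8% of M1 and 68.2% of M0 H3K18ac peaks touched an H3K18la peak, beside 29.9% and 45.8% of the lists.

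Merging overlapping peaks of all 4 lists gave 179 regions in the interval and 50849 in the genome. Of the interval's regions 80 (44.7%) were held by all 4 lists, against 21.5% of the genome's. M1 peaks alone made up 41 regions (22.9%, against 25.7%), M0 peaks alone made up 7 (3.91%, against 19.5%), and 131 (73.2%, against 54.8%) had peaks of both states. The commonest M1-only pattern, in the interval as in the genome, was H3K18ac without H3K18la, with 34 regions (19.0%, against 23.3%). The 41 M1-only regions spread over the class II segment (16 in 0.472 Mb), the class I segment (10 in 1.35 Mb), the centromeric flank (9 in 0.492 Mb) and the class III segment (6 in 0.689 Mb).

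**Figure D1:**
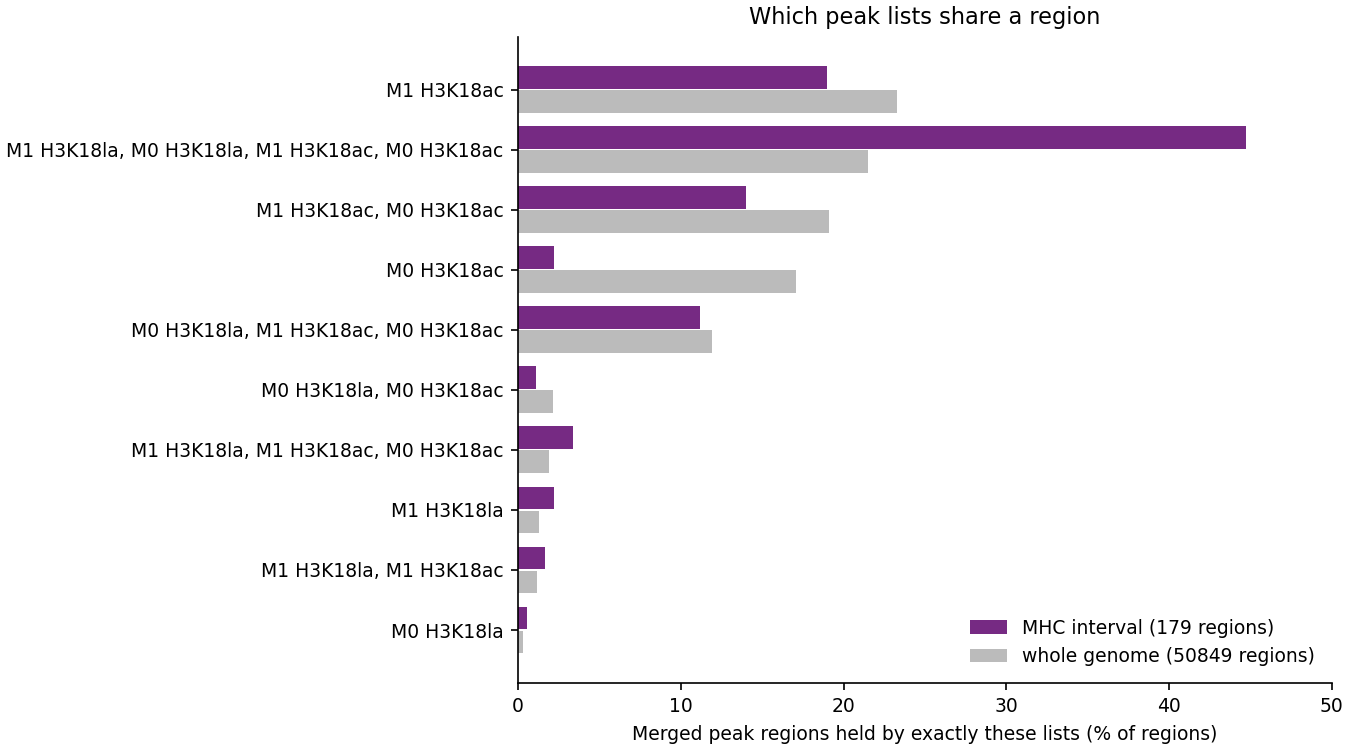
Bars give the percentage of merged peak regions held by exactly the lists named on the left, in the MHC interval (179 regions, purple) and in the whole genome (50849 regions, grey). Regions held by all 4 lists make up 44.7% of the interval and 21.5% of the genome, and those held by M0 H3K18ac alone 2.23% and 17.1%.

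Split along the chromosome, the class II segment (chr17:34092379-34564285) differed most between the states in acetylation. These boundaries were drawn after the data were seen. M1 H3K18ac peaks covered 38% of it and M0 H3K18ac peaks 18.9%, and at the stricter q the values were 32.4% in M1 and 13.7% in M0. Of 41 M1 H3K18ac peaks in the segment 14 had no M0 partner (34.1%, beside 29.6% of the whole list), while 0 of 37 M0 peaks lacked an M1 partner (beside 23.8% of the list). H3K18la covered 8.48% of the segment in M1 and 6.25% in M0, and 5.91% and 5.79% at the stricter q. In the class III segment (chr17:34564286-35253707) acetylation covered 28.3% in M1 and 22.7% in M0, and lactylation 12.5% and 13.5%, the highest lactylation coverage of the 4 segments in both states. The class I segment (chr17:35253708-36600000) was the least covered, with 10.5% in M1 and 6.89% in M0 for H3K18ac, and 3.86% and 3.61% for H3K18la. The centromeric flank had 15.8% in M1 and 10.9% in M0 for H3K18ac, and 6.90% and 7.71% for H3K18la.

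**Figure D2:**
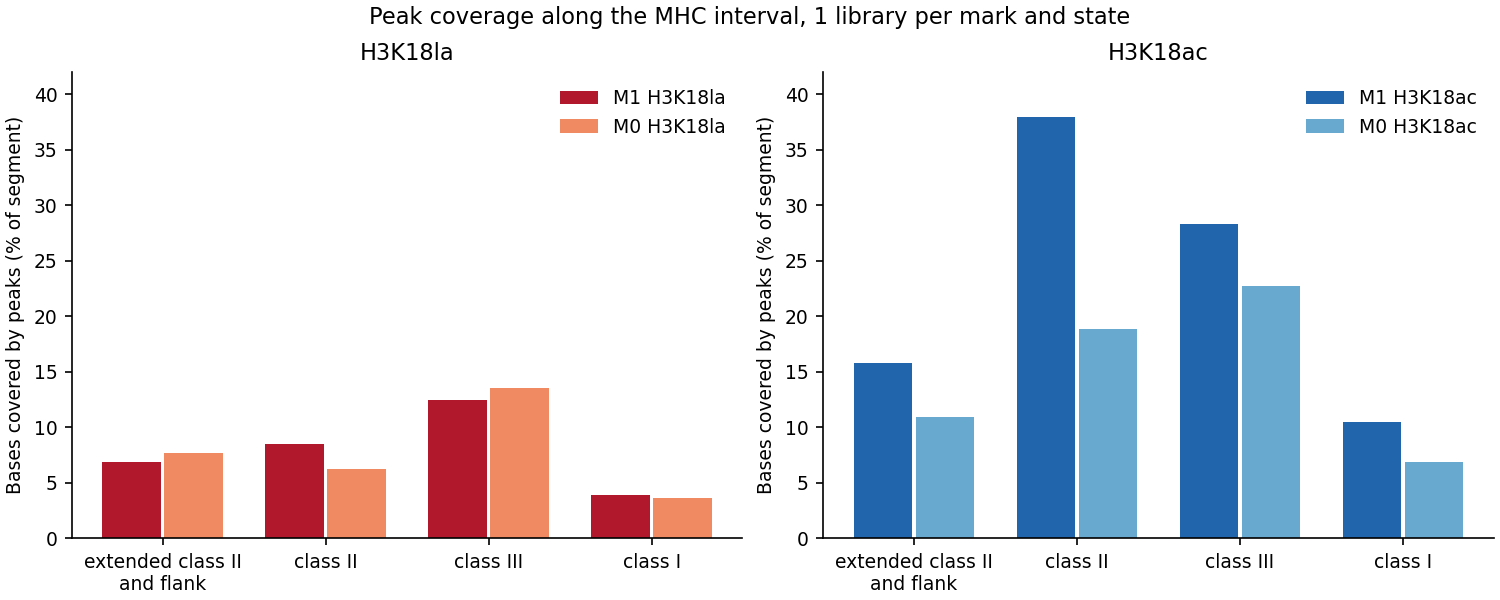
Bars give the percentage of bases of each segment covered by peaks of H3K18la (left panel) and H3K18ac (right panel), with M1 left of M0 in each pair and 1 library per bar. The class II segment shows the widest gap between states, 38% in M1 and 18.9% in M0 for H3K18ac.

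The 5 widest M1 acetylation peaks each lay over 2 or more shorter M0 peaks. The longest ran over chr17:35183744-35226197 (42454 bases), across the cytokine genes Lta, Tnf and Ltb, where M0 had peaks of 19480 and 15982 bases that covered 83.5% of it. The next, chr17:34098680-34138437 (39758 bases), spanned Brd2, which codes for a bromodomain protein that binds acetylated histones, and H2-DMa, a subunit of the class II peptide exchanger, and M0 had 3 peaks covering 35.2% of it. One of 25740 bases (chr17:35790960-35816699) held no annotated start site and was 61.3% covered in M0. Another of 18760 bases (chr17:34332907-34351666) lay over H2-Ea and H2-Eb2 of the class II family and was 42% covered in M0. It too held no annotated start site, but the annotation used lacks a start for 19 of the 109 listed genes of the interval. The peak of 14524 bases (chr17:34285235-34299758) overlapped H2-Aa and had 3 M0 peaks of 530, 706 and 1217 bases under it (16.9%). In M0 the next longest H3K18ac peaks, after the pair at the cytokine genes, were 14969 bases over Fkbpl and Prrt1, 11361 bases over Notch4 and 10411 bases over Clic1 and Msh5.

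Lactylation peaks were shorter. The longest in M1 was 9193 bases (chr17:36016432-36025624), over the non-classical class I gene H2-T24, where the M0 peak had 5096 bases. Then came peaks of 7217 bases at Brd2 and H2-DMa (7646 bases in M0), 6248 bases at Clic1 and Msh5 (8828 bases in M0), 6045 bases in the cytokine cluster (4935 bases in M0) and 5652 bases at Ppp1r18 (6469 bases in M0). The M0 list held 2 more of its 5 longest at Gpsm3 and Pbx2 (7639 bases) and in the cytokine cluster (5880 bases). The highest fold enrichment in the M1 H3K18la list within the interval was 17.3, at the shared promoter of Tap1 and Psmb9, followed by 16.0 at Tapbp, 15.0 at Brd2 and H2-DMa, 15.0 at Mrps18b and Ppp1r10, and 14.5 at H2-T24. In the M0 H3K18la list the leaders were Mrps18b and Ppp1r10 (20.3), Brd2 and H2-DMa (20), Clic1 and Msh5 (19.0), Rgl2 (14) and Ppp1r18 (13.7). Genes of peptide loading thus led the M1 list, while 2 of its 5 leading peaks were also among the 5 leaders in M0. The M1 H3K18ac list was led by H2-T24 (10.8), Tap1 and Psmb9 (10.3), Mrps18b and Ppp1r10 (9.88), Tapbp (9.18) and Aif1 (8.18). The M0 H3K18ac list was led by Brd2 and H2-DMa (9.75), Clic1 and Msh5 (9.73), Mrps18b and Ppp1r10 (8.60), Trim39 (8.31) and Ppt2 (8.20).

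Among the class II genes, H2-Ab1 changed most in RNA at 24 h and in H3K18la on the gene body, while H2-DMa, H2-Aa and H2-Eb1 differed more in H3K18ac. H2-Ab1 (chr17:34263227-34269418), which codes for the beta chain of the class II molecule A, had M1 H3K18la peaks of 4524 bases (chr17:34260715-34265238, fold 4.22) and 429 bases (fold 3.09), and the nearest M0 H3K18la peak lay 20.1 kb away. Its body was covered by H3K18la over 39.4% in M1 and 0% in M0. H3K18ac peaks there had 8652 bases in M1 and 566 bases in M0, covering 33.7% and 9.14% of the body. RNA was 44.7, 45.0, 39.7 and 62.1 RPKM (reads per kilobase of gene and 1e6 reads) at 24 h, against 3.13, 4.18, 4.41 and 3.73 RPKM at 0 h. The groups did not overlap, and its change of 3.32 on the log2 scale (SE 0.11, adjusted p = 1.28e-22 by limma) was the largest of the class II genes.

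H2-Eb1 (chr17:34305867-34316674) codes for the beta chain of the class II molecule E, and whether these cells make E was not measured. Among the class II genes with an annotated start, H2-Eb1 was the one with H3K18la there in M1 and not in M0. The M1 H3K18la peak (chr17:34304533-34306089) had a fold of 3.94 and a −log10 q of 4.56, so it would not pass the stricter q, and the nearest M0 peak lay 3.47 kb away. The M1 H3K18ac peak at the start had 5785 bases and a −log10 q of 8.07, with the nearest M0 H3K18ac peak 2.38 kb away. RNA was 5.45, 3.64, 5.35 and 6.68 RPKM at 24 h, against 1.56, 3.03, 3.38 and 3.10 RPKM at 0 h. All 4 values at 24 h were above all 4 at 0 h (log2 fold change 0.74, SE 0.16, adjusted p = 0.000114), and the level had been higher still at 4 h, at 12.0 ± 2.40 RPKM (SD, n = 4).

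H2-Aa (chr17:34282744-34287823), the alpha chain that pairs with H2-Ab1, had no H3K18la peak on its body in either state. Its H3K18ac peaks covered 51.0% of the body in M1 and 10.4% in M0. RNA was 4.62, 3.83, 5.14 and 5.55 RPKM at 24 h, against 1.88, 2.53, 2.85 and 2.04 RPKM at 0 h (log2 fold change 0.80, SE 0.12, adjusted p = 6.47e-07), and 9.94 ± 1.88 RPKM at 4 h. The transcript thus peaked early, as that of H2-Eb1 did, whereas H2-Ab1 averaged 20.9 ± 2.56 RPKM at 4 h and 38.3 ± 2.04 RPKM at 8 h, then 45.8 ± 1.95 RPKM at 16 h and 47.9 ± 9.81 RPKM at 24 h (SD, n = 4 each).

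The genes of the peptide exchanger moved on another course. The annotated spans of H2-DMa (chr17:34119693-34139101) and Brd2 (chr17:34112019-34122814) overlap, so a peak in the shared stretch counts for both genes. H2-DMa was covered by H3K18ac over 96.6% of its body in M1 and 44.2% in M0. Its RNA was 30, 25.9, 29.4 and 40.4 RPKM at 24 h, against 14.2, 15.9, 15.6 and 16.2 RPKM at 0 h, after falling to 7.83 ± 0.505 RPKM at 4 h (log2 fold change −0.90 at 4 h and 0.96 at 24 h, SE 0.08 for both). H2-DMb1, the partner chain, averaged 38.2 ± 4.43 RPKM at 24 h and 18.3 ± 0.0933 RPKM at 0 h, and was also lower at 4 h than at 0 h (14.3 ± 0.465 RPKM). H2-Ob, which codes for a chain of the class II modulator DO and was named after its values were seen, had H3K18la at its start in M0 (1731 bases, fold 7.76) and not in M1, where a peak of 1041 bases lay 0.521 kb away. Its RNA was nevertheless higher at 24 h, with 1.74 ± 0.257 RPKM against 0.861 ± 0.0731 RPKM at 0 h.

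At 24 h all 6 class II genes tested were higher than at 0 h, beside 39.9% of all genes tested. The class II median was 0.88 on the log2 scale, beside 0.02 over all genes tested. All 6 were also higher when libraries were instead scaled to their reads in listed genes, called the other scaling here (median 0.47). Without 24 h replicate 4 all 6 were higher as well (median 0.79). Those markers of other class II-bearing cells that were listed summed to at most 10.0 RPKM at 0 h and 24 h, while unlisted ones cannot be judged. The RNA of H2-Aa, H2-Eb1 and H2-Ob was itself below 10.0 RPKM at these times. Of 8 dendritic cell markers 3 were listed, and Flt3 and Zbtb46 were not among them. The 3 summed to 3.53 to 5.08 RPKM at 24 h and 8.22 to 10.0 RPKM at 0 h. Of 6 B cell markers Cd79b and Cd22 were listed, with 3.98 to 6.20 RPKM at 24 h and 5.13 to 6.36 RPKM at 0 h, while Cd79a was not. Neutrophil markers (4 of 8 listed) summed to 21.6 to 33.9 RPKM at 24 h and 9.24 to 14 RPKM at 0 h, and stromal and endothelial ones (5 of 6 listed) to 1.44 to 1.80 RPKM and 0.299 to 0.571 RPKM. Their part in the values of the interval was not tested, and in bulk RNA fewer cells of a type and less RNA per cell cannot be told apart.

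**Figure D3:**
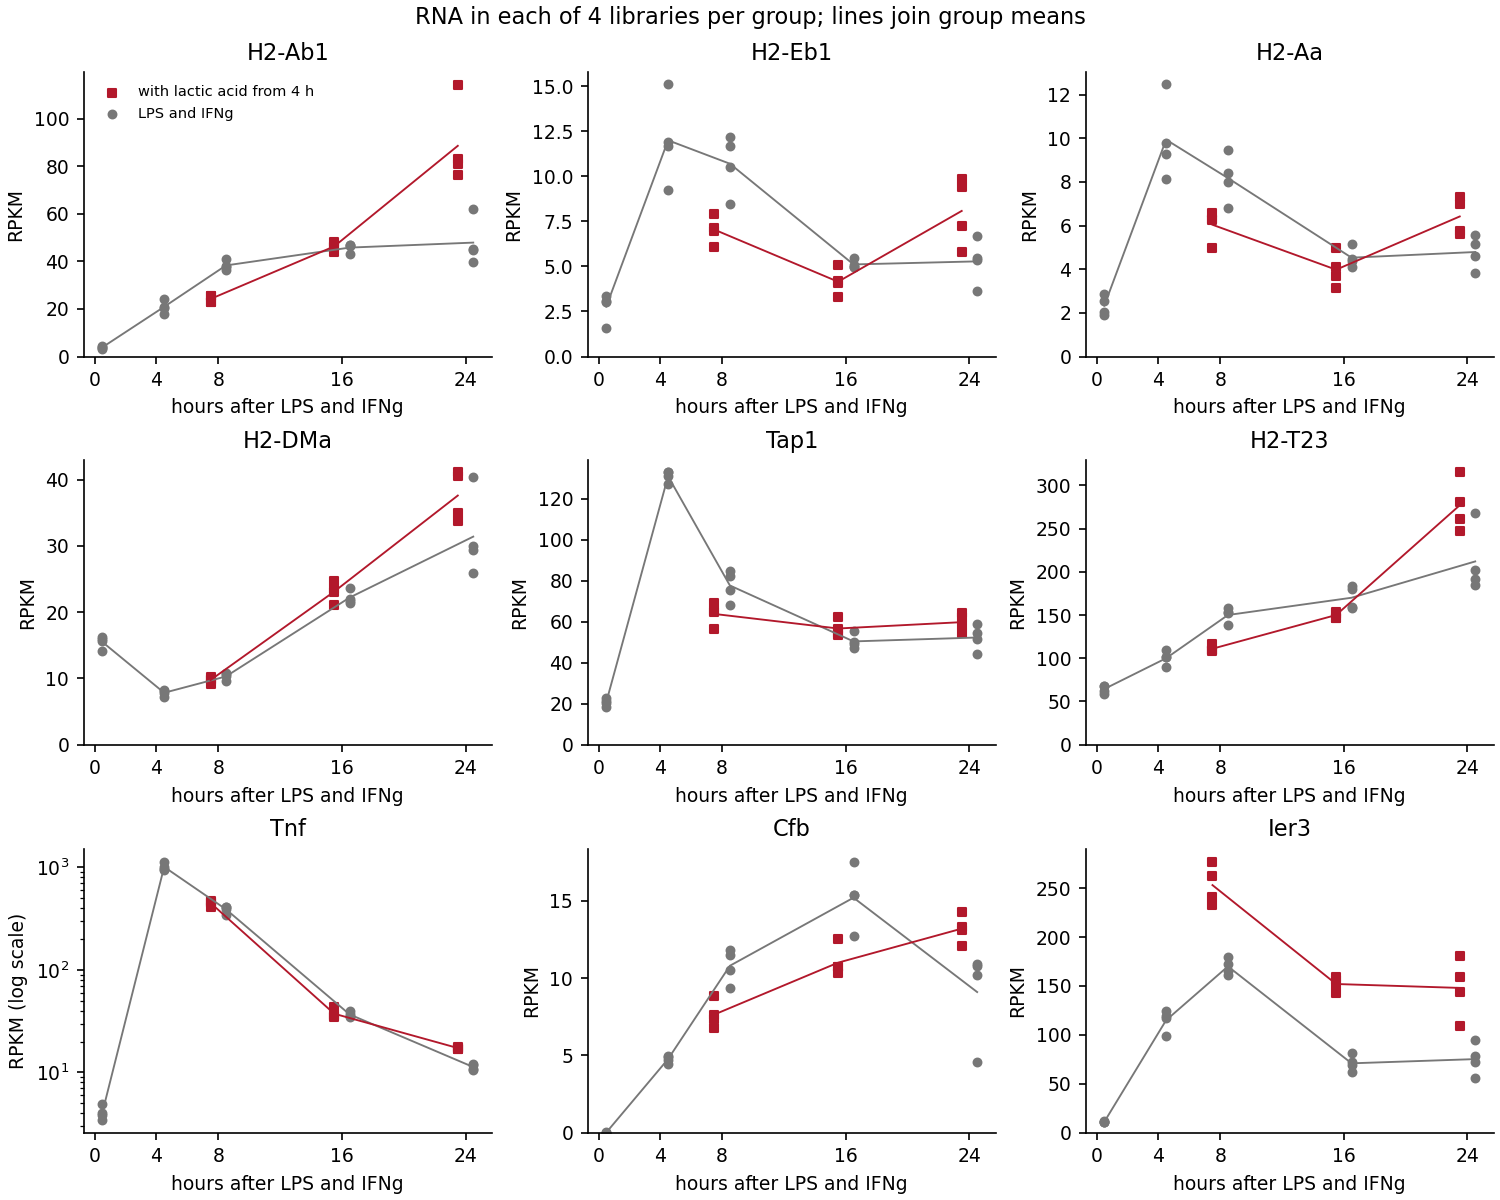
Points give the RPKM of each library and lines the mean of 4 libraries, against hours after LPS and IFNg, with lactic acid (red squares, set slightly left of the hour) and without (grey circles, set slightly right). The Tnf axis is logarithmic. H2-Ab1 climbed to 47.9 RPKM at 24 h and 88.6 RPKM with lactic acid, while H2-Eb1, H2-Aa, Tap1 and Tnf were highest at 4 h.

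The genes that feed peptides to class I molecules had peaks of all 4 lists at their start sites where such a site was annotated, and longer ones in M1. Tap2, which has no annotated start here, differed in H3K18la. The H3K18la peak that overlapped it had 1728 bases in M1 and 2663 bases in M0, and the H3K18ac peak 3303 and 2771 bases. Tap1 codes for a subunit of the peptide transporter and shares its promoter with Psmb9, an immunoproteasome subunit. The peak there (M1 H3K18la, chr17:34186132-34189698) had 3567 bases in M1 and 1935 bases in M0 for H3K18la, and 5231 bases in M1 and 2080 bases in M0 for H3K18ac. Its rank by fold was at the 99.9th percentile of the M1 H3K18la list. Tapbp, which codes for tapasin and ties the transporter to class I molecules, had H3K18la peaks of 2891 bases in M1 and 1445 bases in M0, and H3K18ac peaks of 5367 and 1546 bases. Psmb8, another immunoproteasome subunit, had H3K18la peaks of 2671 bases in M1 and 1325 bases in M0.

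Tap1 RNA was 54.4, 44.4, 51.5 and 58.8 RPKM at 24 h, against 18.2, 21.2, 23 and 20.4 RPKM at 0 h (log2 fold change 1.29, SE 0.08, adjusted p = 3.48e-15), with no overlap between the groups. Tapbp had 171, 131, 165 and 220 RPKM at 24 h, against 76.6, 80.0, 90.7 and 85.7 RPKM at 0 h (1.01, SE 0.10). Psmb8 averaged 84.8 ± 18.9 RPKM at 24 h and 39.9 ± 1.02 RPKM at 0 h (1.05), and Psmb9 24.9 ± 3.62 RPKM and 18 ± 0.955 RPKM (0.44). Of this group all 5 genes, Tap2 included (0.56), were higher at 24 h, beside 39.9% of all genes. Under the other scaling only 3 were, with Psmb9 at −0.02 and Tap2 at 0.10. At 4 h all 5 were higher, beside 42.5% of all genes, by a median of 1.76 on the log2 scale. Under the other scaling all 5 were higher as well (median 1.24).

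The classical class I genes were marked in both states. H2-K1 (chr17:33996012-34000619) had start-site peaks of 1165 bases in M1 and 1136 bases in M0 for H3K18la, and of 1121 and 1038 bases for H3K18ac. Its RNA was 759, 690, 742 and 1092 RPKM at 24 h, against 373, 384, 396 and 421 RPKM at 0 h (log2 fold change 1.04, SE 0.09, adjusted p = 2.58e-12). At H2-D1 (chr17:35263094-35267497) the H3K18la peak had 2028 bases in M1 and 1563 bases in M0, and the H3K18ac peak 8988 and 1793 bases. H2-D1 RNA averaged 1436 ± 187 RPKM at 24 h and 737 ± 48.4 RPKM at 0 h (0.95, SE 0.07). Under the other scaling both remained higher, by 0.55 for H2-K1 and 0.47 for H2-D1. These genes and the H2-Q and H2-T genes are near copies of each other, so reads and peaks may be shared among them and their single values are uncertain.

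H2-T23 (chr17:36029977-36032701), which codes for Qa-1, a non-classical class I molecule seen by natural killer cell receptors, had, like H2-Eb1, start-site peaks of both marks in M1 and of neither mark in M0. No other gene among the 81 tested ones with an annotated start did, a set that leaves out H2-Ab1 and Cfb. The M1 H3K18la peak (chr17:36031217-36032694) had 1478 bases, a fold of 5.63 and a −log10 q of 10.3, and the nearest M0 H3K18la peak lay 6.52 kb away. The M1 H3K18ac peak had 1715 bases, with the nearest M0 peak 5.42 kb away. Both covered about the same stretch, 54.2% and 54.4% of the gene body. RNA was 202, 192, 185 and 268 RPKM at 24 h, against 58.7, 62.5, 68.0 and 68.3 RPKM at 0 h, so that the lowest value at 24 h was well above the highest at 0 h (log2 fold change 1.69, SE 0.09, adjusted p = 1.95e-17). The mean, 64.4 RPKM at 0 h and 212 RPKM at 24 h, was also higher than at 0 h by 0.63 on the log2 scale at 4 h, by 1.21 at 8 h and by 1.39 at 16 h. Under the other scaling the 4 h value was 0.11 and did not pass the test (adjusted p = 0.086).

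H2-T24, the neighbour of H2-T23 in the same family, lay at the M1 H3K18la peak that was the longest of the interval, and its body was covered over 25.2% in M1 and 6.92% in M0. Its RNA was 59.8, 54.9, 60.2 and 34.8 RPKM at 24 h, against 13.0, 15.6, 17.4 and 13.2 RPKM at 0 h (log2 fold change 1.73, SE 0.11). H2-T22 had small start-site peaks of 513 bases in M1 and 319 bases in M0 for H3K18la, and averaged 68.9 ± 9.19 RPKM at 24 h and 16.2 ± 1.01 RPKM at 0 h (2.02, SE 0.08), the largest change of the class I genes. At 24 h all 8 non-classical class I genes tested were higher than at 0 h, beside 39.9% of all genes, by a median of 1.30. Under the other scaling all 8 were higher as well (median 1.07). Among them H2-Q6 (1.19) and H2-Q7 (1.41) had no peak of any list at the start site or on the body. H2-Q5 (0.84) and H2-T10 (1.08), without an annotated start, had none on the body either. Whether ChIP reads could be placed in these near copies was not tested, so the lack of peaks there is uncertain. The promoters of H2-Q6 and H2-Q7 hold a kappa B match.

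In the class III segment the cytokine genes kept wide peaks in both states while the RNA of Tnf peaked early. Tnf (chr17:35199367-35202007), which codes for tumour necrosis factor, was wholly covered by H3K18la in M1 and over 79% of its body in M0, and wholly by H3K18ac in both. Tnf RNA was 1137, 958, 933 and 1005 RPKM at 4 h, against 4.91, 3.84, 4.05 and 3.45 RPKM at 0 h (log2 fold change 7.64, SE 0.08, adjusted p = 9.06e-36). By 24 h, the time of the M1 chromatin, it was 10.8, 12.0, 11.9 and 10.5 RPKM (1.29, SE 0.08). Lta, its neighbour and a related cytokine gene, had H3K18la on 6.67% of its body in M1 and 0% in M0, and averaged 0.292 ± 0.11 RPKM at 24 h and 0.0264 ± 0.0315 RPKM at 0 h. Lst1 and Aif1, genes of myeloid cells that lie beside them, reached 621 ± 216 and 112 ± 21.9 RPKM at 24 h, against 207 ± 10.2 and 33.3 ± 1.20 RPKM at 0 h (1.53 and 1.70). At 4 h, at 178 ± 2.72 and 34.5 ± 2.07 RPKM, neither had passed the test, but under the other scaling both were lower (−0.74 and −0.47). Of 5 genes tested in this cluster 4 were higher at 24 h, beside 39.9% of all genes. The other, Nfkbil1, did not pass the test (−0.09), and was lower under the other scaling (−0.49). Ltb was not tested, although its start site lay under the wide M1 and M0 H3K18ac peaks.

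Cfb (chr17:34856374-34862514), which codes for complement factor B of the alternative pathway, had longer or additional peaks in M1 and, of the class III genes, the largest change in RNA at 24 h. Its M1 H3K18la peak had 2206 bases (chr17:34861023-34863228, fold 3.79, −log10 q 4.34, below the stricter q), and the nearest M0 H3K18la peak lay 9.78 kb away. The H3K18ac peaks had 6547 bases in M1 and 501 bases in M0, on 90.5% and 8.16% of the body. RNA was 10.8, 10.9, 10.2 and 4.59 RPKM at 24 h, against 0.0124, 0.0172, 0.0343 and 0.00853 RPKM at 0 h. The log2 fold change was 3.25 (SE 0.14, adjusted p = 1.89e-19) on the log2(RPKM + 1) scale, which understates changes of genes this low, and 3.51 without 24 h replicate 4. C4b, the gene of complement factor 4, was not tested.

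The heat shock genes Hspa1a and Hspa1b, which code for HSP70 chaperones, peaked at another time. At 8 h they averaged 18.6 ± 0.991 and 22.2 ± 1.16 RPKM, and at 24 h 1.12 ± 0.245 and 1.40 ± 0.283 RPKM, against 0.129 ± 0.0335 and 0.158 ± 0.0593 RPKM at 0 h (SD, n = 4). The log2 fold changes were 4.12 and 4.32 at 8 h and 0.90 and 1.04 at 24 h. Their start sites had peaks of all 4 lists, with H3K18ac lengths of 2795 and 6790 bases in M1 and 1434 and 1202 bases in M0. The remaining class III genes had no common course: at 24 h 12 of 24 tested rose and 9 fell, beside 39.9% and 37.3% of all genes. Under the other scaling 3 of these 24 rose and 13 fell. That scaling lowered the median of all genes too, and calls over all genes were not counted under it. Among the remaining class III genes Lsm2, which codes for an RNA-binding protein of the splicing machinery, averaged 4.92 RPKM at 0 h and fell by 0.91 on the log2 scale at 24 h (SE 0.09). The lysosomal enzyme genes Neu1 and Ppt2 were higher, by 0.78 and 0.79. Clic1, a chloride channel gene with M0 H3K18la peaks among the strongest of the interval, was higher by 0.44 but at −0.04 when scaled, and Ddx39b, an RNA helicase gene, did not pass the test (0.04).

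Other genes of the class I segment and the flank included those that fell most. Tcf19, a gene linked to cell division, was at 0.737, 0.994, 0.964 and 0.926 RPKM at 24 h, against 15.4, 14.6, 13.1 and 13.3 RPKM at 0 h (log2 fold change −2.99, SE 0.07, adjusted p = 1.10e-26). It had an H3K18la peak at its start in M0 (1897 bases, chr17:35515804-35517700), with the nearest M1 peak 136 kb away, and H3K18ac peaks of 1051 bases in M1 and 1749 bases in M0. Nrm, which codes for a protein of the nuclear envelope, averaged 4.25 ± 0.146 RPKM at 24 h and 15.9 ± 0.736 RPKM at 0 h (−1.69, SE 0.07), and it too had a start-site H3K18la peak in M0 only (1144 bases). Kifc1, a motor gene of the mitotic spindle, was at 1.08, 0.913, 0.912 and 1.35 RPKM at 24 h, against 12.3, 11.7, 11.3 and 9.52 RPKM at 0 h (−2.57, SE 0.07), and had an M0 H3K18la peak of 396 bases at its start and no other peak there. In the same direction Hnrnpm, a splicing factor gene, fell by 1.47 with start-site peaks of all 4 lists.

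Ier3, an immediate early gene of the class I segment, moved the other way. It had 55.5, 78.8, 72.5 and 94.6 RPKM at 24 h, against 10.8, 10.9, 12.0 and 10.9 RPKM at 0 h (log2 fold change 2.63, SE 0.12), and its body lay wholly under peaks of all 4 lists. Of 19 non-class I genes tested in that segment 8 rose and 10 fell at 24 h, and of 20 in the flank 10 rose and 8 fell, beside 39.9% and 37.3% of all genes. Under the other scaling 4 rose and 14 fell of 20 in the segment, and 3 rose and 12 fell in the flank. That scaling lowered the median of all genes too, and calls over all genes were not counted under it. Brd2 was higher by 0.67 (SE 0.08) and Ndufa7, a respiratory chain gene, by 1.08 (SE 0.13). Cd320, which codes for a receptor for vitamin B12 uptake and was named for its M1-only H3K18ac peak (640 bases, fold 2.99), did not pass the test (−0.01, SE 0.10). Ddah2, an enzyme gene of the nitric oxide pathway with start-site peaks of both marks in M0 only, was higher by 0.34 (adjusted p = 0.0175), but did not pass without 24 h replicate 4 (0.20, adjusted p = 0.13) and was at −0.11 under the other scaling.

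Start-site peaks were compared with RNA over the 81 tested genes of the interval that have an annotated start. H3K18la was at the start of 62 of them in M1 and 69 in M0, and H3K18ac at 75 in M1 and 73 in M0. The shares of 76.5% and 85.2% for H3K18la and of 92.6% and 90.1% for H3K18ac compare with 76.6%, 92.8%, 92.7% and 94.8% of 7991 such genes in the whole table. H3K18la in M1 only was found at H2-Eb1 and H2-T23 (2.47%, against 1.09% of all), both higher in RNA. H3K18la in M0 only was found at 9 genes (11.1%, against 17.2% of all), of which 3 were higher and 6 lower in RNA at 24 h, with a median log2 fold change of −0.39 beside −0.14 for all such genes. These 9 were Ddah2, Dhx16, H2-Ob, Kank3, Kifc1, Nrm, Pfdn6, Tcf19 and Wdr46.

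Gene bodies were compared between the states as well. Over the 98 tested genes, H3K18la covered the body by over 10 percentage points more in M1 in 12 genes and in M0 in 14, while H3K18ac covered more in M1 in 28 genes and in M0 in 10. H3K18la was on the body in M1 and absent in M0 at H2-Ab1, Cfb, Lta and H2-T23, and the 4 were higher in RNA at 24 h, beside 64.3% of the interval's tested genes. The reverse held at 7 genes, of which Pfdn6 (0.32) and Ddah2 (0.34) were higher and Tcf19, Kifc1, Nrm, Zbtb12 (−0.41) and Dhx16 (−0.39) lower. At Lta M1 H3K18la covered only 161 bases (6.67% of the body) and was not at the start, and RNA averaged under 1 RPKM at 24 h. The Cfb peak, with a −log10 q of 4.34, would not pass the stricter q. Body coverage was not computed for the genome, so these counts of bodies have no share of all genes beside them. Over the whole lists the M1 to M0 ratio of covered bases was 1.22 for H3K18ac and 0.741 for H3K18la. For H3K18ac the M1-only bodies were those of Cd320 and H2-T23.

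**Figure D4:**
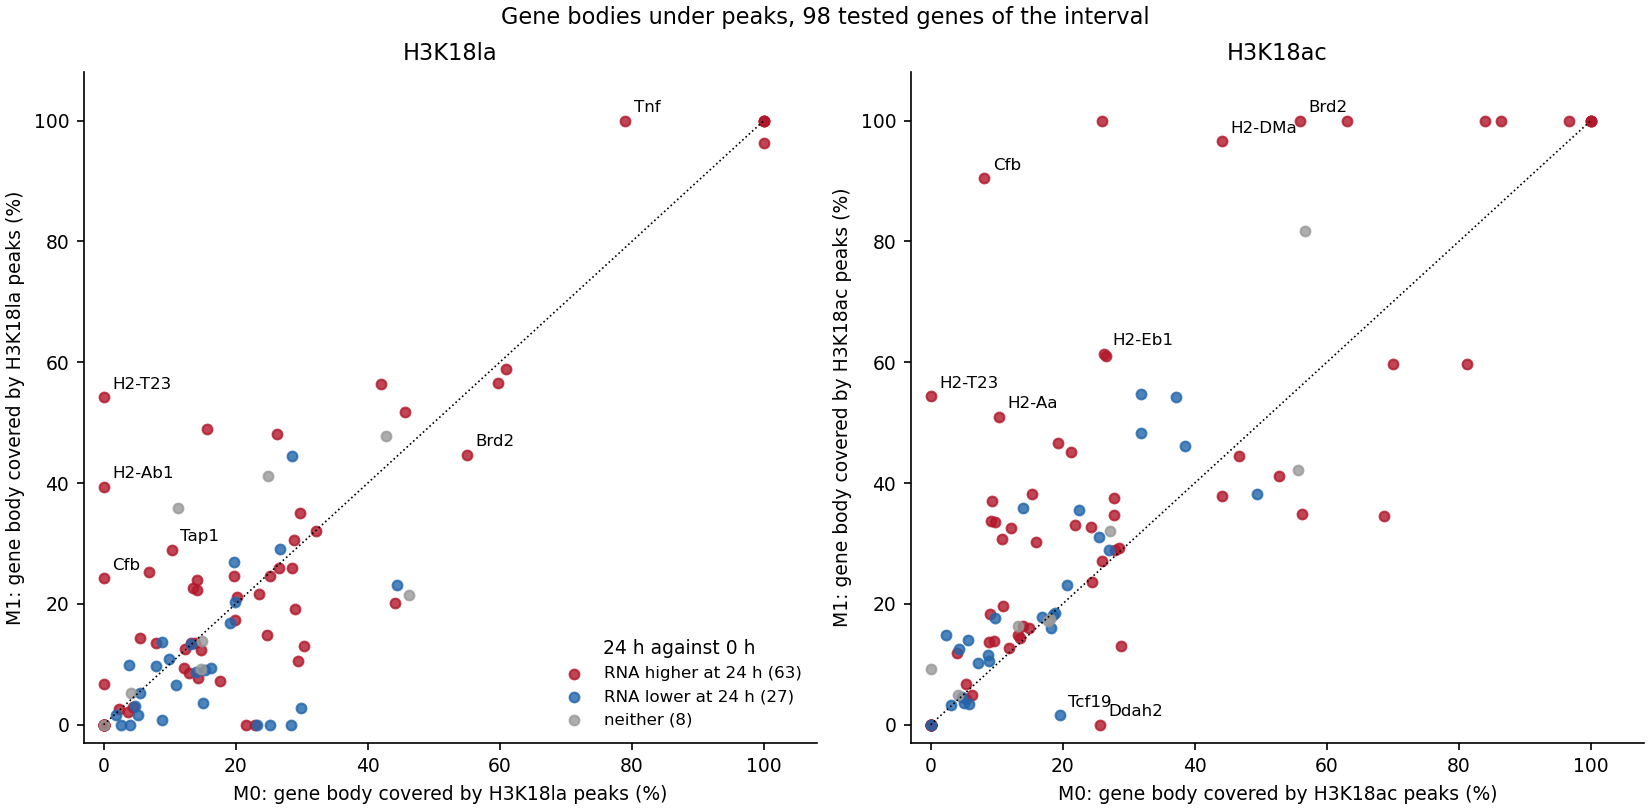
Each point is 1 of 98 tested genes, with the percentage of its body under M1 peaks on the vertical axis and under M0 peaks on the horizontal axis, for H3K18la (left) and H3K18ac (right), coloured by RNA at 24 h against 0 h. H2-T23, H2-Ab1 and Cfb stand on the left edge for H3K18la with 54.2%, 39.4% and 24.3% in M1 and 0% in M0.

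In RNA, genes of the interval were more often higher than lower at 24 h. Of 109 listed genes 98 passed the minimum of 1 RPKM in 4 libraries, and of these 63 were higher (64.3%, against 39.9% of all 9942 genes tested) and 27 lower (27.6%, against 37.3%), with a median log2 fold change of 0.39 beside 0.02 over all genes. Without 24 h replicate 4 the counts were 55 and 27. The other scaling moved the median of all genes to −0.38 and that of the interval to −0.02, and the counts to 38 higher and 41 lower. The direction against 0 over the whole interval thus depends on the scaling, while its median lay above that of all genes under both. At 4 h 49 were higher (against 42.5% of all) and 32 lower (against 42.7%), or 31 and 53 when scaled, where the median of all genes was −0.44. At 8 h 56 were higher (against 40.7%) and 25 lower (against 42.1%), or 41 and 46 when scaled, where the median of all genes was −0.41. At 16 h 54 were higher (against 39.9%) and 27 lower (against 36.9%), or 38 and 44 when scaled, where the median of all genes was −0.31. These comparisons share the 0 h libraries, and calls over all genes were not counted under the other scaling.

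**Figure D5:**
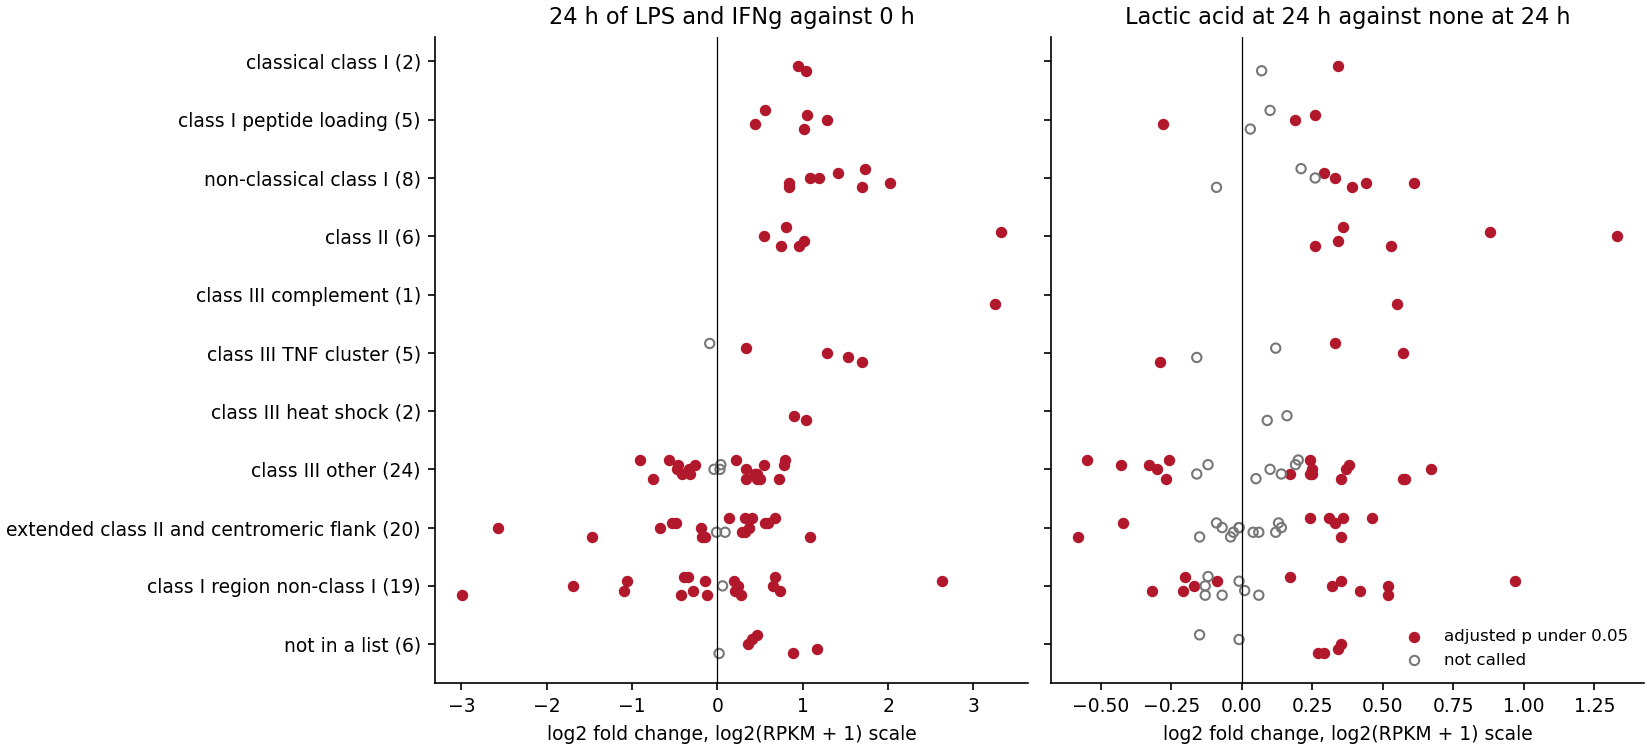
Each point is 1 tested gene, placed by its log2 fold change on the log2(RPKM + 1) scale and grouped by its list, at 24 h against 0 h (left) and with lactic acid against none at 24 h (right). Filled points passed an adjusted p of 0.05. On the left the class I, peptide loading and class II genes all lie above 0 (under the other scaling Psmb9 is at −0.02), while the class III other, flank and class I region genes lie on both sides, with more calls below 0 under the other scaling. That scaling also lowered the median of all genes.

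Genes outside the interval that serve the same pathway were read from a list of 14 tested genes, of which 10 were higher and 1 lower at 24 h, beside 39.9% and 37.3% of all genes. This list was not counted under the other scaling, which lowered the median of all genes at 24 h. B2m, the light chain of every class I molecule, averaged 6463 ± 1371 RPKM at 24 h and 2416 ± 127 RPKM at 0 h (log2 fold change 1.40, SE 0.09). Cd74, the invariant chain of class II, averaged 37.1 ± 10.9 RPKM at 24 h and 14.8 ± 2.70 RPKM at 0 h (1.25, SE 0.14). Nlrc5, the class I coactivator, was higher by 2.29 at 4 h and by 0.32 at 24 h, when its values overlapped those at 0 h. Ciita, the gene of the coactivator CIITA, was not listed and so was not tested. Rfx5, which codes for a factor that binds class I and class II promoters, fell by 0.71 at 24 h (SE 0.06).

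With lactic acid, 4 of 6 class II genes were lower at 8 h, and all 6 were higher at 24 h, than without it, beside 36% of all genes lower at LA 8h and 25.5% higher at LA 24h. H2-Ab1 had 25.4, 23, 25.6 and 22.8 RPKM at LA 8h, against 41.1, 36.2, 38.2 and 37.8 RPKM at 8 h (log2 fold change −0.64, SE 0.11, adjusted p = 8.36e-06). At LA 24h it had 114, 76.4, 82.9 and 80.8 RPKM, against 44.7, 45.0, 39.7 and 62.1 RPKM at 24 h (0.88, SE 0.11, adjusted p = 1.47e-07), and in both cases the groups did not overlap. H2-Ob, named after its values were seen, had 7.44, 4.90, 5.80 and 5.54 RPKM at LA 24h, against 1.65, 1.74, 1.47 and 2.08 RPKM at 24 h (1.33, SE 0.08). Of the 6 class II genes 4 were lower and 0 higher at LA 8h under either scaling, 1 was higher at LA 16h, and 6 were higher at LA 24h, where the other scaling left 3 (H2-Ab1 at 0.67, H2-Ob at 1.14 and H2-DMb1 at 0.13). Without 24 h replicate 2 the LA 24h calls of H2-Aa (0.28), H2-Eb1 (0.39) and H2-DMa (0.18) were lost, and that of H2-Aa also without LA 24h replicate 3 (0.30). The difference between the effects at 24 h and at 8 h was not tested.

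Over the interval, 45 genes were higher at LA 24h (against 25.5% of all genes) and 15 lower (against 21.7%). With only these 2 groups in the model 21 were higher and 7 lower, and under the other scaling 19 rose and 31 fell, where the median of all genes was −0.15. At LA 16h 39 were higher (against 30.2%) and 18 lower (against 31%), or 45 and 19 under the other scaling. At LA 8h 28 were higher (against 32.1%) and 37 lower (against 36%), or 35 and 33 under the other scaling, so the balance at LA 8h depends on it. Calls over all genes were again not counted under that scaling. Non-classical class I genes were higher in 5 of 8 and lower in 0 at LA 24h (4 and 1 when scaled), and lower in 5 of 8 at LA 8h (3 when scaled). H2-T22 averaged 105 ± 7.74 RPKM at LA 24h and 68.9 ± 9.19 RPKM at 24 h (0.61, SE 0.08), and H2-T23 averaged 277 ± 29.9 RPKM and 212 ± 38.4 RPKM (0.39, SE 0.09).

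Peptide loading genes split: at LA 8h Tapbp and Tap2 were higher by 0.34 and 0.35, and Tap1, Psmb8 and Psmb9 fell by 0.28, 0.51 and 0.67. Psmb9 averaged 38 ± 0.889 RPKM at LA 8h and 61.2 ± 5.39 RPKM at 8 h. The heat shock genes were higher with lactic acid at the earlier times. Hspa1a had 43.5, 39.8, 46.9 and 42.2 RPKM at LA 8h, against 19.6, 17.4, 19.3 and 18.2 RPKM at 8 h (log2 fold change 1.17, SE 0.08, adjusted p = 2.64e-12), and Hspa1b rose by 0.80 there and by 1.56 at LA 16h. Ier3 had 181, 109, 144 and 159 RPKM at LA 24h, against 55.5, 78.8, 72.5 and 94.6 RPKM at 24 h (0.97, SE 0.12, adjusted p = 1.32e-07), and was also higher at LA 8h (0.57) and LA 16h (1.10). Tnf averaged 17.3 ± 0.394 RPKM at LA 24h and 11.3 ± 0.753 RPKM at 24 h (0.57, SE 0.08). Lst1 and Aif1 were lower with lactic acid at 8 h (−0.75 and −0.49) and at 16 h (−0.51 and −0.65). Cfb was lower at LA 8h (−0.45) and LA 16h (−0.43) and higher at LA 24h (0.55), but the last value was 0.29 without 24 h replicate 4 (adjusted p = 0.0036) and 0.35 under the other scaling, where it no longer passed.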

How the data were processed

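ChIP-seq of MNase-digested chromatin with added spike-in chromatin (4 peak lists, 1 library each) and stranded mRNA sequencing (32 libraries) were used. Per the submitters' processing notes, Bowtie2 2.2.6, HISAT2 2.1.0, SAMtools 0.1.19, MACS2 2.2.1 and featureCounts 1.5.0-p1 were among the tools, with builds mm10 and GRCm38. The peak threshold and control are not given in the sources used here. The deposited peak lists hold, per peak, the authors' fold enrichment over the caller's background, its −log10 p and −log10 q, and a score that follows the −log10 q. The deposited table of ChIP depth gives counts of reads in the mouse and spike-in genomes, and none of the peak values was scaled by them. The authors' deposited RNA table holds RPKM, only for genes that passed the authors' own test, so the share of changed genes is set by that choice. Its values gave whole reads for all 11184 genes (100% of values within 0.05 of a whole number).

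Peaks of the interval were counted, merged and overlapped by at least 1 base. A peak within 1 kb of a RefSeq start (GRCm38.p6) was at that start, and 11172 gene IDs matched. RNA was tested with limma-trend (limma 3.58.1, R 4.3.3) on log2(RPKM + 1) over all 8 groups, for genes with at least 1 RPKM in 4 libraries (9942 genes), with Benjamini-Hochberg adjustment over all of them and a threshold of 0.05. The design allowed for counts or RPKM, and RPKM was used. The whole reads served edgeR 4.0.16 and DESeq2 1.42.0 as alternatives. The RNA tests were checked on simulated data. Members and gene lists were chosen with earlier results of these data known. The genes named were a set list of antigen presentation and neighbouring genes, up to 3 called genes of each list with the largest change at 24 h, the 5 peaks of highest fold and the 5 longest per list, and genes with a start-site region in 1 state only. H2-Ob, H2-Q6, H2-Q7, Tap2 and Nfkbil1 were named after their values were seen. Segment boundaries, coverage at the stricter q, and whole-list shares at the stricter q and the 50% overlap were also chosen after seeing the data. Binomial intervals are exact (Clopper-Pearson) and cover counting error only. Same-numbered replicates did not deviate together in every pair, so numbers were not taken to pair libraries. Some items are not reported here.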

Additional observations from a re-analysis of the deposited data

Results flagged for a closer look

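Among 99 groups of 4 libraries of named genes, 5 held a library whose gap to its nearest neighbour, divided by the range of the group, was above Dixon's 95% critical value for 4 samples. Chance gives about 1 in 20 groups. Cfb had 4.59 RPKM in 24 h replicate 4, while the other libraries had 10.2 to 10.9 RPKM. Ppt2 had 25.9 RPKM in the same library, while the others had 16.6 to 18 RPKM. Kifc1 had 5.77 RPKM in 4 h replicate 1, with 4.79 to 4.86 RPKM in the others. Hnrnpm had 36.9 RPKM in that library as well, with 31 to 32 RPKM in the others. Ier3 had 12 RPKM in 0 h replicate 3, with 10.8 to 10.9 RPKM in the others.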

How the results depend on the processing

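Scaling libraries to their reads in listed genes changed the counts most: in the interval 38 genes then rose and 41 fell at 24 h, 31 rose and 53 fell at 4 h, 46 fell at 8 h, 44 fell at 16 h, and 19 rose and 31 fell at LA 24h. Calls over all genes were not counted under that scaling. With only the 2 groups compared in the model, LA 24h gave 21 higher and 7 lower. Under that scaling the 24 h changes of Psmb9 (−0.02), Clic1 (−0.04), Ddx39b (−0.42) and Ddah2 (−0.11) turned negative. Leaving out 1 library gave Ddx39b −0.0018 to 0.08 and Cd320 −0.06 to 0.02 at 24 h, neither of which passed the test in the fit of all libraries. At a −log10 q of at least 5, the interval held 64 M1 H3K18la, 100 M1 H3K18ac and 102 M0 H3K18ac peaks. There, 7.81% of M1 and 40.4% of M0 H3K18la peaks and 14.7% of M0 H3K18ac peaks lacked the other state (11.7%, 52.8% and 29.5% of the lists at that q), 100% of M1 H3K18la peaks touched H3K18ac, and 86.3% of M0 H3K18ac peaks touched H3K18la. Counting only overlaps of at least 50% of a peak, 30.3% of M1 and 37.3% of M0 H3K18la peaks and 40.6% of M1 H3K18ac peaks lacked the other state (31.6%, 56.9% and 43.4% of the lists), and 30.6% of M1 and 51% of M0 H3K18ac peaks touched H3K18la. The causes were not tested, beyond the smaller lists at the stricter q. The counts at 24 h were 63 higher and 27 lower with edgeR and with DESeq2.

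Same-numbered libraries at 24 h and 0 h had correlations of −0.263, 0.125, 0.511 and 0.281 between their deviations, so the numbers were not shown to pair libraries. With the replicate block 61 genes rose and 27 fell at 24 h, while 43 rose and 14 fell at LA 24h. Leaving out 1 library in turn gave 55 to 63 higher at 24 h and 31 to 57 higher at LA 24h, the lowest without 24 h replicate 2 and the highest without 24 h replicate 4. With 1 ChIP library per mark and state, no spread between libraries is known for any peak value.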
